A study of Mus musculus with 6 samples.

Results

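The let-7 and miR-98 family was followed among the short RNAs bound to Argonaute (Ago) proteins in mouse brain. Its members were the reads that the deposited annotation assigned to mmu-let-7a-5p, mmu-let-7b-5p, mmu-let-7c-5p, mmu-let-7d-5p, mmu-let-7e-5p, mmu-let-7f-5p, mmu-let-7g-5p, mmu-let-7i-5p or mmu-miR-98-5p. These 9 were among 782 mature miRNA entries of the table, and 1296 of its 65087 unique sequences above 0 belonged to them. Ago-bound RNA was pulled down with a peptide from GW182 and sequenced in 6 samples, 3 control (WT) and 3 Tau tg. Per the study's methods, all mice were males of 3 months on a C57BL/6 J background. Tau tg mice carried in addition a fragment of human tau under the Thy 1.2 promoter, which drives expression in neurons. The sample labels named the hippocampus and the protocol named cortex and hippocampus together, so the tissue was taken as forebrain tissue of mixed cell types. No measurement in the table reports the transgene, and the genotypes were not checked. Levels are given in RPM, read counts scaled by the authors to a common total, but the listed values did not sum to equal totals. They summed to 960279, 939839 and 915719 RPM in WT 1, 2 and 3. In Tau tg 1, 2 and 3 the sums were 978886, 963910 and 965149 RPM, each above every WT sample. In bulk tissue, fewer cells that hold a miRNA and less of it per cell cannot be told apart.

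let-7 was found as a regulator of developmental timing in worms, and its family is among the most conserved of all animal miRNAs. The mature forms accumulate as cells differentiate and repress mRNAs such as those of Lin28a, Hmga2, Myc and the Ras genes. LIN28 proteins in turn bind let-7 precursors and block their processing. Because all members share the seed, the stretch near the 5′ end that pairs with target mRNAs, they are expected to overlap in their targets, and they are abundant in the differentiated brain. A miRNA acts only once an Ago protein has loaded it into the RNA-induced silencing complex, the RISC.

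The 9 mature sequences from RefSeq are shown in full because the family is defined by what they share and its members are told apart by very few bases. They read 5′ to 3′, with the seed at positions 2 to 8 in capitals.
mmu-let-7a-5p: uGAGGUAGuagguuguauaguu
mmu-let-7b-5p: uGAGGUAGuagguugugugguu
mmu-let-7c-5p: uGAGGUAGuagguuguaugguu
mmu-let-7d-5p: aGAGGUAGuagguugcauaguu
mmu-let-7e-5p: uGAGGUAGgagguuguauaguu
mmu-let-7f-5p: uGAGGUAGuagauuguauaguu
mmu-let-7g-5p: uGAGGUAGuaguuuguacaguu
mmu-let-7i-5p: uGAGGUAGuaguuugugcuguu
mmu-miR-98-5p: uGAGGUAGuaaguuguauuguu

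All 9 were 22 nt long and identical over positions 2 to 8. Counted from 1 at the 5′ end and relative to mmu-let-7a-5p, mmu-let-7c-5p carried A19G, mmu-let-7e-5p U9G and mmu-let-7f-5p G12A, each a single change. mmu-let-7b-5p carried A17G and A19G, mmu-let-7d-5p U1A and U16C, mmu-let-7g-5p G12U and U18C, and mmu-miR-98-5p G11A and A19U. The most distant member was mmu-let-7i-5p with G12U, A17G, U18C and A19U. Of the 36 pairs of members, 4 differed at 1 position and the most distant pair at 6, so a single misread base can move a read from one member to another.

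RefSeq lists 12 hairpins for the 9 members on GRCm38.p6, and GENCODE M21 gives the same coordinates for each of them. On chromosome 13, Mirlet7a-1 (48538179 to 48538272), Mirlet7f-1 (48537829 to 48537917) and Mirlet7d (48536012 to 48536114) lay on the minus strand within an exon of the long noncoding RNA 6720427I07Rik. On chromosome 15, Mirlet7c-2 (85706603 to 85706697) and Mirlet7b (85707319 to 85707403) were separated by 621 bp on the plus strand, in an exon of the noncoding transcript Lncppara. On chromosome X, Mirlet7f-2 (151912346 to 151912428) and Mir98 (151913214 to 151913321) lay 785 bp apart on the plus strand in an intron of Huwe1, which encodes a ubiquitin ligase.

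The remaining hairpins were single members. Mirlet7a-2 on chromosome 9 (41536716 to 41536811, plus strand) sat in introns of the noncoding transcripts Gm49317 and 3110039I08Rik, 5211 bp from Mir100. Mirlet7c-1 on chromosome 16 (77599657 to 77599750, plus strand) sat in introns of the host transcript Mir99ahg and, on the opposite strand, of Gm11146, 656 bp from Mir99a. Mirlet7e on chromosome 17 (17830352 to 17830444, plus strand) sat in an intron of Spaca6, 367 bp from Mir125a. Mirlet7g on chromosome 9 (106178840 to 106178927, plus strand) lay in an intron of Wdr82. Mirlet7i on chromosome 10 (122985640 to 122985724, minus strand) lay in an exon of D630033A02Rik, which is annotated as a transcribed pseudogene. The members let-7a, let-7c and let-7f each have a pair of hairpins with the same 5p sequence, so their reads cannot be assigned to one locus.

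The libraries held 998248 to 6879551 recovered reads, of which 87462 to 930230 came from the family. A floor of 3 reads corresponded to 0.427 to 2.75 RPM. The summed RPM of 5 neuronal miRNAs was 149737 to 156846 in WT and 144970 to 166468 in Tau tg, and those of oligodendrocyte, immune, red blood cell, vessel and choroid plexus lists also overlapped between the groups. The list for pituitary or epithelium, of which 6 of 6 miRNAs were measured, stood apart. It summed to 3146, 6160 and 9891 RPM in WT 1, 2 and 3 and to 2359 to 2559 RPM in Tau tg. miR-486a-5p and miR-486b-5p, 2 of the 4 red blood cell markers, were at 0.

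The family was a large part of what Ago held in every sample. Its reads were 15.7%, 12.0% and 8.76% of all reads from WT 1, 2 and 3. They were 13.5%, 17.01% and 14.8% in Tau tg 1, 2 and 3. The 95% Wilson intervals of these shares, from recovered reads, had half-widths of at most 0.0686 percentage points. That covers counting error alone, because PCR copies were not told apart from distinct molecules. The spread between mice was thus far wider than the counting error. In RPM the family summed to 150527, 113046 and 80231 in WT and to 132362, 163985 and 142681 in Tau tg. This gave 114602 ± 35174 RPM for WT (SD, n = 3), to set beside 146343 ± 16126 RPM for Tau tg (SD, n = 3), a ratio of 1.28. The ratio was smaller for the share of all reads, at 1.24, and for the share of miRNA reads, at 1.20. That last share was 17.3%, 14.5% and 10.6% in WT and 14.6%, 19.4% and 17.1% in Tau tg. WT 3 was the lowest of the 6 samples and WT 1 the second highest, so the groups overlapped.

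The members were ordered mmu-let-7c-5p, b, a, f, d, g, i, e and mmu-miR-98-5p by their mean over the 6 samples. mmu-let-7c-5p was the most abundant, at 47912, 32148 and 22868 RPM in WT and 41215, 49885 and 41920.5 RPM in Tau tg. It ranked 2 among all mature miRNAs of the table. The Tau tg samples all lay above WT 2 and WT 3, and WT 1 lay among them.

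mmu-let-7b-5p came next, at 28440.0, 16956 and 12181 RPM in WT and 24293, 30868 and 25339.8 RPM in Tau tg. mmu-let-7a-5p held 22239, 18809.6 and 13336 RPM in WT and 19731, 26109.8 and 22006 RPM in Tau tg. mmu-let-7b-5p was the higher of the pair in only 4 of 6 samples, with ratios of 0.901 to 1.28, and the order of these neighbours did not exceed their spread. Both were within the 10 most abundant miRNAs.

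mmu-let-7f-5p stood at 14556, 12929 and 9945 RPM in WT and 14302, 17027 and 14263 RPM in Tau tg, below mmu-let-7a-5p in 6 of 6 samples. mmu-let-7d-5p stood at 11334, 10155 and 5759 RPM in WT and 9250.1, 12610.0 and 12117 RPM in Tau tg. mmu-let-7g-5p stood at 10502, 10621 and 6297 RPM in WT and 9955, 11302 and 12042 RPM in Tau tg. These last 2 were not separated, since each was the higher in 3 of 6 samples.

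mmu-let-7i-5p stood at 8659, 6926 and 5907 RPM in WT and 7952, 7981 and 8514 RPM in Tau tg. mmu-let-7e-5p stood at 5972, 3982 and 3592 RPM in WT and 4976, 7569 and 5801 RPM in Tau tg, below mmu-let-7i-5p in 6 of 6 samples by 1.05 to 1.74 times. mmu-miR-98-5p stood far lower, at 913, 519 and 346 RPM in WT and 687, 632 and 678 RPM in Tau tg, and ranked 132 among the mature miRNAs. Between these last neighbours the ratio was 6.54 to 12.0, and they were the only neighbours in the order whose ranges over the 6 samples did not overlap.

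**Figure D1:**
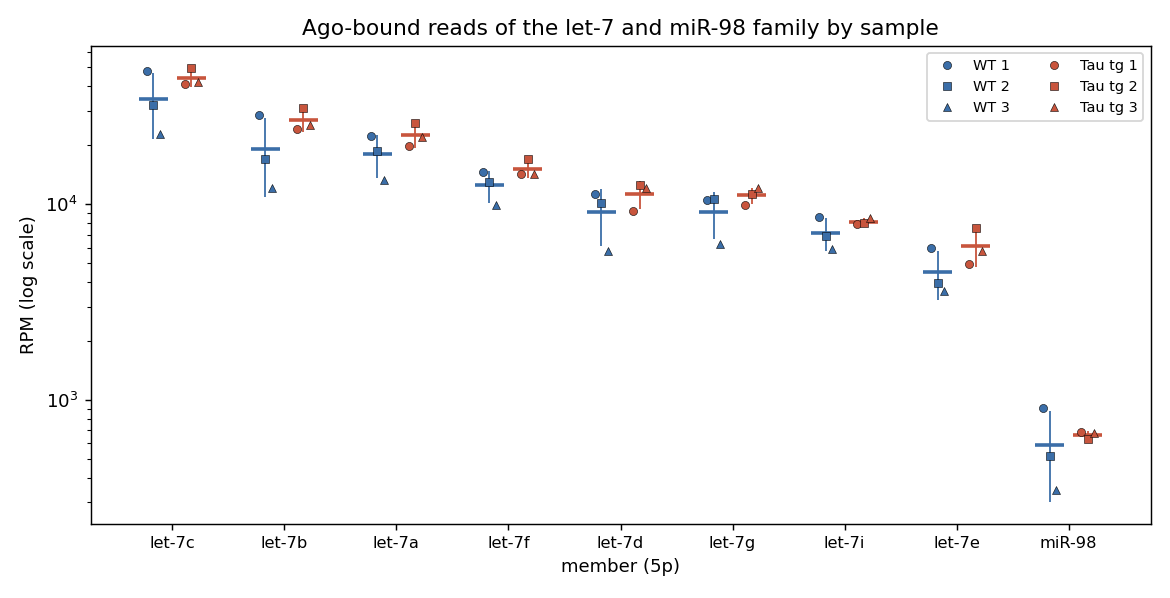
RPM of each member (log axis) in the 3 WT samples (blue) and the 3 Tau tg samples (red), with a bar for the group mean and a line for 1 SD. WT 3 (blue triangle) is the lowest sample of all 9 members, and WT 1 (blue circle) lies at or near the level of the Tau tg samples.

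The comparison of Tau tg with WT addressed whether tau expression alters the load of the RISC. Every member had the higher mean in Tau tg, with ratios of 1.12 for mmu-miR-98-5p to 1.40 for mmu-let-7b-5p. For all 9, however, the groups overlapped, against 9.53% of the 472 mature miRNAs above 0 in all 6 samples whose groups did not overlap. WT 3 was the lowest of the 6 samples for 9 of 9 members and WT 1 the highest WT sample for 8 of 9. The single exception was mmu-let-7g-5p, where WT 2 was slightly above WT 1.

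No member passed the test. With limma and a mean-variance trend on log2(RPM + 1), 0 of 9 members had an adjusted p under 0.05, as did 0% of the 689 miRNAs tested. At an unadjusted p under 0.05 it was also 0 of 9, with 3.63% of all miRNAs. edgeR and DESeq2 on recovered reads also called 0 of 9 at either threshold. Of the 689 miRNAs, edgeR called 28 at an unadjusted p under 0.05 and 0 at an adjusted p. DESeq2 called 37 and 5. The log2 fold changes ran from 0.20 for mmu-let-7i-5p to 0.56 for mmu-let-7b-5p. For mmu-let-7b-5p the standard error was 0.35, the 95% interval -0.19 to 1.31 and the limma adjusted p 0.896. For mmu-let-7c-5p the log2 fold change was 0.43 with a standard error of 0.35 and a 95% interval of -0.31 to 1.17. For mmu-let-7a-5p, at 0.34, the interval reached from -0.34 to 1.03, so with 3 samples a group the data left room for a decrease as well as for an increase.

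The direction has to be read beside that of the whole table. The median log2 fold change was 0.34 over the 9 members, 0.25 over the 689 miRNAs and 0.13 over the 101 with a mean of at least 1000 RPM. Of all miRNAs tested, 63.6% were above 0, and 8 of 9 members were above the median of all. Median-of-ratios scaling lowered the median of all miRNAs to 0.09 and that of the members to 0.18, and edgeR on recovered reads gave 0.05 and 0.22. All 9 members stayed above 0 under both. Leaving out WT 3 lowered the median of the members to 0.14, next to 0.13 over all miRNAs, and the log2 fold change of mmu-miR-98-5p was then -0.05. Without Tau tg 2 both medians were 0.29. Leaving out WT 1 raised the median of the members to 0.55. Then mmu-let-7b-5p, mmu-let-7c-5p and mmu-let-7e-5p had unadjusted p of 0.0102, 0.0295 and 0.0455 in limma, with adjusted p of at least 0.408. Calls rose over the whole table too, as 50 of 677 miRNAs had an unadjusted p under 0.05 in that fit, beside 25 of 689 with all samples. The pituitary or epithelium list was highest in WT 3, where the family was lowest, and lowest among WT in WT 1, where the family was highest. Its part in the result was not tested.

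**Figure D2:**
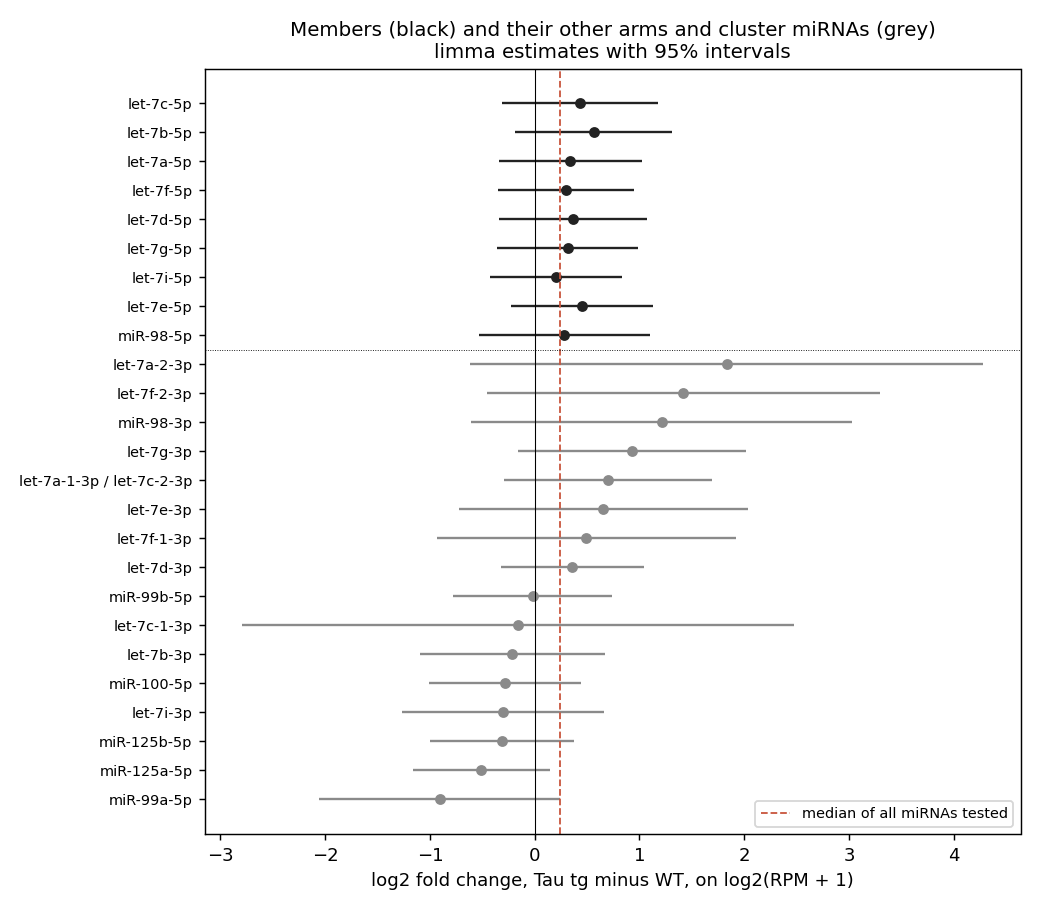
Log2 fold change of Tau tg against WT on log2(RPM + 1) from limma (points) with 95% intervals (lines) for the 9 members in black, and for their other arms and cluster miRNAs in grey. All 9 members lie between 0.20 and 0.56, near the dashed line at the median of all miRNAs tested (0.25), and every interval includes 0.

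The profiles of the members over the 6 samples were alike. Each member's log2 profile over the 6 samples, centred on its own mean, differed from that of the rest of the family by a root mean square of 0.08 for mmu-let-7a-5p to 0.21 for mmu-miR-98-5p, while the median over the abundant miRNAs outside the family was 0.46. mmu-let-7c-5p made up 28.4% to 31.8% of family RPM over the 6 samples, mmu-let-7a-5p 14.8% to 16.6%, mmu-let-7f-5p 9.67% to 12.4% and mmu-let-7d-5p 6.99% to 8.98%. The share of mmu-let-7b-5p was 16.4% ± 2.20 (SD, n = 3) for WT, and Tau tg gave 18.3% ± 0.533 (SD, n = 3). mmu-let-7g-5p made up 6.89% to 9.40%, mmu-let-7i-5p 4.87% to 7.36%, mmu-let-7e-5p 3.52% to 4.62% and mmu-miR-98-5p 0.386% to 0.607%. The groups overlapped for the share of all 9 members.

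Outside the family, the 5 miRNAs with the most similar profile among 93 with a mean of at least 1000 RPM were miR-744-5p, let-7d-3p, miR-433-3p, miR-328-3p and miR-382-5p. Their root mean square differences from the family profile, on the log2 scale over 6 samples, were 0.13, 0.18, 0.19, 0.19 and 0.19. miR-744-5p stood at 1668, 1105 and 1026 RPM in WT and 1555, 1876 and 1468 RPM in Tau tg, with the same order of the WT samples as the family. let-7d-3p is the opposite arm of a family hairpin.

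The seed was compared next, since the study assigns toxicity by seed. A 6mer seed is the stretch at read positions 2 to 7, and its viability, deposited by the authors, is the percent viability of murine cell lines, averaged over the lines, after transfection with a duplex carrying the seed. GAGGUA, the 6mer seed of all 9 members, had a viability of 50.3%. It ranked 1 of 4051 seeds by RPM, and 30.8% of these seeds had a lower viability. Seeds of lower viability than GAGGUA held 23.7% to 25.6% of RPM per sample. The weighted mean viability was 50.3% to 50.4% for family reads and 58.4% to 60.3% for all other reads, so the family lay below the rest in every sample of both groups.

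Almost all reads with this seed came from the family. Between 98.6% and 98.8% of the RPM with GAGGUA was annotated to a member. The remainder, 638 sequences with a mean of 1638 RPM in all, was mostly sequence within 1 base of a member, which made up 85.2% of it. Reads with GAGGUA summed to 148650.3, 111931 and 79402 RPM in WT and 131140.4, 161575 and 141489 RPM in Tau tg. The log2 fold change was 0.39 with a standard error of 0.41, a 95% interval of -0.41 to 1.20 and a limma adjusted p of 0.991, where 0.125% of 3987 seeds had an adjusted p under 0.05. This difference did not exceed the spread between mice.

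Family reads with another seed were few. Their share of family RPM was 2.39%, 2.31% and 2.46% in WT and 2.21%, 2.70% and 2.05% in Tau tg, spread over 87 other seeds. A 5′ end at the annotated position was found in 98.1% to 98.5% of the RPM that matched a hairpin with or without added 3′ bases. A start 1 nt further in was found in 0.990% to 1.43%. That shift turns GAGGUA into AGGUAG, whose viability was 60.2%, and AGGUAG held 49.7% of the RPM with another seed. The seed UGAGGU, from reads with an extra base at the 5′ end, held 16.2% and had a viability of 20.7%, and GGGGUA held 6.65% with a viability of 29.4%.

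The 3 most abundant family reads with another seed are shown because each starts at the second base of its mature sequence, and the third also lacks the last base. Capitals mark the 6mer seed at read positions 2 to 7.
let-7c-5p, 21 nt: gAGGUAGuagguuguaugguu
let-7a-5p, 21 nt: gAGGUAGuagguuguauaguu
let-7c-5p, 20 nt: gAGGUAGuagguuguauggu

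The first stood at 356.5, 180.9 and 205.5 RPM in WT and 304.8, 577.9 and 300.3 RPM in Tau tg. The second stood at 146.6 to 211.0 RPM in WT and 164.3 to 271.0 RPM in Tau tg, and the third at 54.1 to 115.2 and 103.1 to 213.3 RPM. Tau tg 2 was the highest sample for each of the 3, and the groups overlapped. In a limma fit of the percentage of each miRNA's RPM with a seed other than its main one, 0 of 9 members had an unadjusted p under 0.05, with 4.35% of 276 miRNAs of at least 100 RPM. The groups did not overlap for mmu-let-7b-5p, at 2.3586% to 2.55% in WT and 1.86% to 2.3575% in Tau tg, and for mmu-let-7e-5p, at 1.44%, 1.497% and 1.23% in WT and 1.77% to 3.03% in Tau tg. That is 2 of 9 members in opposite directions, beside 11.6% of the 276 miRNAs. For mmu-let-7b-5p the gap between WT 1 and Tau tg 1 was so small that it cannot be told from counting error.

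Reads of the members were then sorted by how they matched their hairpins. The exact mature sequence was the most abundant read of each of the 9 members and made up 52.4% to 55.5% of family RPM per sample. Between 86.9% and 88.4% matched a member hairpin without any added base. Reads with 1 to 3 bases at the 3′ end that the hairpin does not encode made up 10.9%, 10.6% and 11.6% in WT and 10.5%, 10.6% and 12.2% in Tau tg, and 0.951% to 1.18% had another mismatch. Of the RPM with such added bases, a single A accounted for 61.9% and a pair of As for 10.1%. None of these shares of the family separated the groups.

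The members differed strongly from each other at the 3′ end. mmu-let-7g-5p had the highest mean share of the exact mature sequence over the 6 samples (65.3%, range 62.9% to 67.0%), though in Tau tg 2 mmu-let-7d-5p and mmu-let-7f-5p were above it. mmu-let-7b-5p had the lowest share in each of the 6 samples, with 31.1% to 35.7% in the exact sequence, 14.96% to 18.8% in 20-nt reads and 284 unique sequences. mmu-let-7i-5p was the longest, with a mean read length of 22.04 to 22.14 nt, where the other 8 members lay between 21.58 and 21.84 nt. Its reads that matched the hairpin without added bases were 66.2% to 68.9% of its RPM, against 92.3% to 93.4% for mmu-let-7a-5p. These shares are not built alike, because a U after the mature end is encoded for let-7a but not for let-7i. The mature sequence plus U (2.80% to 3.60% of mmu-let-7a-5p RPM) thus counts as a match there. For mmu-let-7i-5p (9.31% to 12.8%) it counts as an added base.

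**Figure D3:**
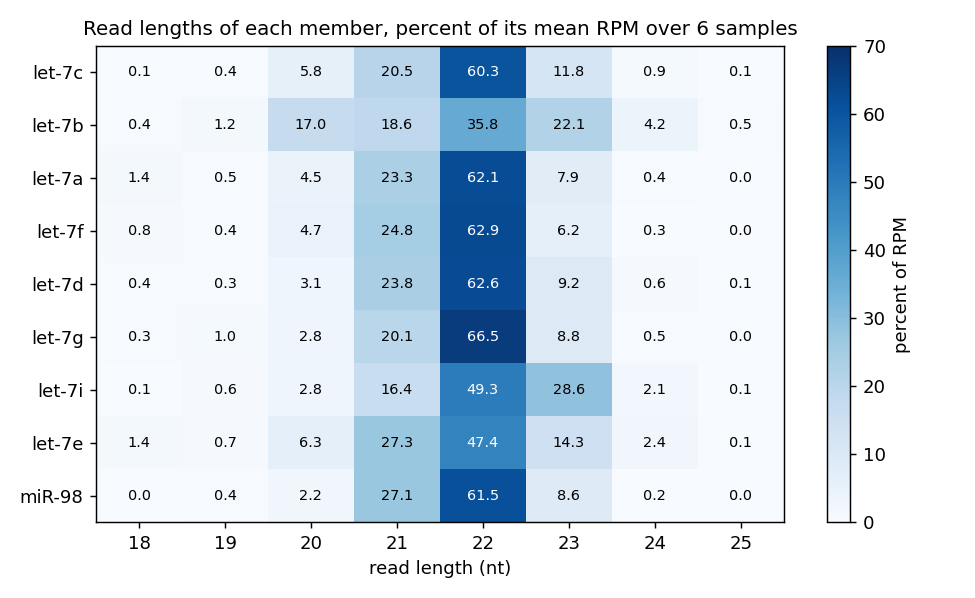
Read length of each member as a percentage of its mean RPM over the 6 samples, for reads of 18 to 25 nt (rows in order of mean RPM, darker for higher). 22 nt is the most common length for every member. mmu-let-7b-5p has the lowest share at 22 nt (35.8%) and mmu-let-7i-5p the highest at 23 nt (28.6%).

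The longer reads were resolved by their last base. The 3 most abundant family reads with a base that the hairpin does not encode are shown because all of them are a mature sequence with 1 added a at the 3′ end. Capitals mark the 6mer seed at positions 2 to 7.
let-7c-5p plus a: uGAGGUAguagguuguaugguua
let-7b-5p plus a: uGAGGUAguagguugugugguua
let-7i-5p plus a: uGAGGUAguaguuugugcuguua

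The read of mmu-let-7i-5p stood at 1348, 1074 and 986.1 RPM in WT and 1387, 1008 and 1462 RPM in Tau tg.

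An added A is encoded after the mature end in none of the 12 hairpins. The mature sequence plus A made up 15.6%, 15.5% and 16.7% of mmu-let-7i-5p RPM in WT and 17.4%, 12.6% and 17.2% in Tau tg. For the other 8 members this share was 1.33% to 6.57%, and mmu-let-7i-5p was the highest member in 6 of 6 samples. At 6439 reads or more of mmu-let-7i-5p per sample, this difference between members was far outside the counting error, and the groups overlapped.

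An added U needs the hairpin to be read. The base after the mature end is U in both hairpins of let-7a and let-7c and in those of let-7b, let-7d and let-7g, in 1 of 2 for let-7f, and G for let-7e, let-7i and miR-98. Where U is encoded it can come from the hairpin or be added. mmu-let-7b-5p, with U encoded, carried it in 10.2% to 14.2% of its RPM, mmu-let-7c-5p in 4.97% to 5.90%, and the other members with U encoded in every hairpin in 2.38% to 4.42%. Among the members with G encoded, mmu-let-7i-5p nevertheless carried U in 11.6%, 10.6% and 9.91% of its RPM in WT and 9.997%, 12.8% and 9.31% in Tau tg, and the encoded G in 0.108% to 1.27%. mmu-let-7e-5p carried U in 4.22% to 6.55% and G in 2.51% to 5.79%. A U at this position that the hairpin does not encode was thus present in all 3 members where it can be told apart.

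mmu-miR-98-5p was the only member whose share with an added U separated the groups, beside 8.76% of 251 miRNAs for which the most abundant read plus U was measured. The share was 2.10%, 1.17% and 1.06% in WT and 3.50%, 7.54% and 3.74% in Tau tg. These rest on 41, 9 and 4 reads of 1949, 766 and 377 in WT and on 169, 57 and 62 reads of 4829, 756 and 1658 in Tau tg. This measure was chosen after its values were seen, and 1 of 9 members is close to the background share.

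**Figure D4:**
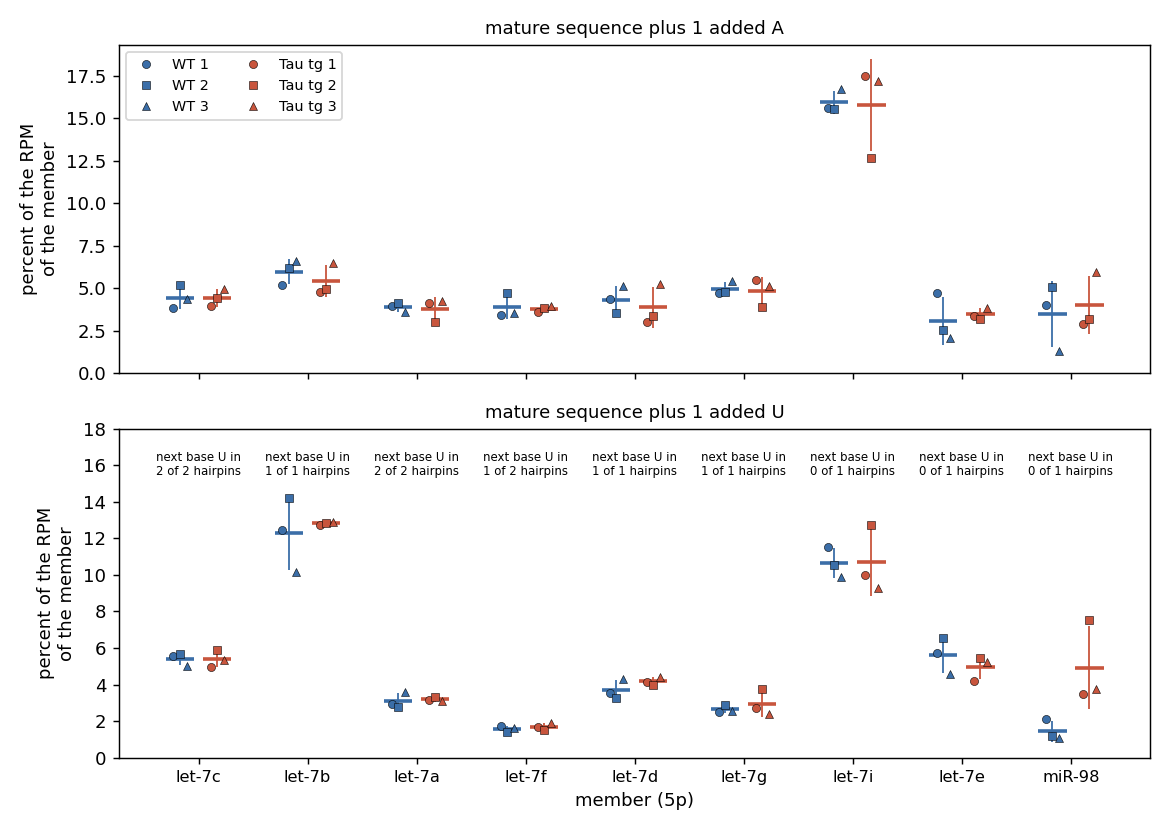
Share of each member's RPM in the mature sequence plus 1 A (top) and plus 1 U (bottom) in the 3 WT (blue) and 3 Tau tg (red) samples, with the group mean and 1 SD. The lower panel states in how many of the member's hairpins U follows the mature end. mmu-let-7i-5p is highest for A (12.6% to 17.4%) and carries U in 9.31% to 12.8% although its hairpin encodes G.

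Mean read length did not separate the groups in the test. 0 of 9 members had an unadjusted p under 0.05 in limma, with 3.26% of the 276 miRNAs. For mmu-let-7i-5p alone the samples did not overlap, at 22.09, 22.04 and 22.04 nt in WT and 22.10, 22.14 and 22.10 nt in Tau tg. That is 1 of 9 members beside 9.78% of all, and the difference of 0.0567 nt had a 95% interval of -0.068 to 0.181 nt.

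Reads of 21 nt were set side by side by group, a measure chosen after the profiles were seen. The 21-nt share of family RPM was 21.9%, 22.3% and 23.5% in WT and 20.6%, 20.4% and 20.6% in Tau tg, without overlap. No share over all miRNAs stands beside this family value. By member, the share was lower in all 3 Tau tg samples than in any WT sample for 5 of 9, beside 3.99% of the 276 miRNAs that were lower in this way and 8.33% in either direction. The 5 members were mmu-let-7b-5p, mmu-let-7c-5p, mmu-let-7d-5p, mmu-let-7f-5p and mmu-miR-98-5p, out of only 11 such miRNAs. They share samples and near-identical sequences and are not independent of each other.

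mmu-let-7d-5p showed 24.97%, 27.5% and 28.6% in WT and 22.4%, 20.5% and 21.7% in Tau tg. mmu-let-7c-5p showed 21.8%, 20.9% and 21.8% in WT and 19.7%, 19.9% and 19.6% in Tau tg. mmu-miR-98-5p ran from 28.3% to 45.1% in WT and from 21.1% to 24.3% in Tau tg, the 45.1% resting on the 377 reads of WT 3. In limma only mmu-let-7d-5p had an unadjusted p under 0.05, at a difference of -5.45 percentage points (95% interval -10.5 to -0.445, unadjusted p 0.0376, adjusted p 0.822), which makes 1 of 9 beside 3.99% of the 276 miRNAs. Leaving out any sample but WT 1 ended that call, with unadjusted limma p of 0.0717 to 0.111. mmu-miR-98-5p, at -12.2 percentage points and an unadjusted limma p of 0.0521, was called instead without WT 2 (-15.3 points, p 0.0339) or WT 3 (-6.89 points, p 0.0424). The 22-nt share of family RPM was 54.4% to 55.48% in WT and 55.52% to 57.7% in Tau tg. These ranges barely missed each other, between WT 2 and Tau tg 3, and no share over all miRNAs stands beside them. Both lengths are parts of the same total, so the 22-nt share is no separate result from the 21-nt share.

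Individual sequences of the members were tested in the fit over all sequences. Of the 811 member sequences that averaged 1 RPM or more, 43 (5.30%) had an unadjusted p under 0.05 in limma, 36 higher and 7 lower in Tau tg, beside 2.23% of 36070 sequences. None had an adjusted p under 0.05 in limma or edgeR, and 1 had in DESeq2. The 43 became 13 with edgeR and 18 with DESeq2 on recovered reads, 7 at a mean of at least 10 RPM, and 15 without Tau tg 2, 26 without Tau tg 1 and 26 without Tau tg 3. The member sequences are isoforms of 9 miRNAs in the same samples and are not independent of each other. The median log2 fold change was 0.44 over member sequences and -0.16 over all sequences, miRNA or not. Summed by mature miRNA, the medians lay closer, at 0.34 over members and 0.25 over all miRNAs tested. The exact mature read of mmu-let-7b-5p stood at 9162, 5778 and 3783 RPM in WT and 8073, 11007 and 8499.6 RPM in Tau tg, with a log2 fold change of 0.64 and a limma adjusted p of 0.584. Those of the other 8 members had log2 fold changes of 0.27 to 0.50.

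A read of 18 nt matched mmu-let-7a-5p and mmu-let-7c-5p alike, since it ends before the base that tells them apart, and the deposited annotation gave it to mmu-let-7a-5p. It is shown because it is the only family read that matched 2 members without a mismatch, with the seed at positions 2 to 7 in capitals.
Shared by let-7a-5p and let-7c-5p: uGAGGUAguagguuguau

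It stood at 256.7, 288.7 and 124.8 RPM in WT and 212.2, 276.0 and 317.9 RPM in Tau tg, which is 0.189% of family RPM, so the order of the members does not depend on it.

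**Figure D5:**
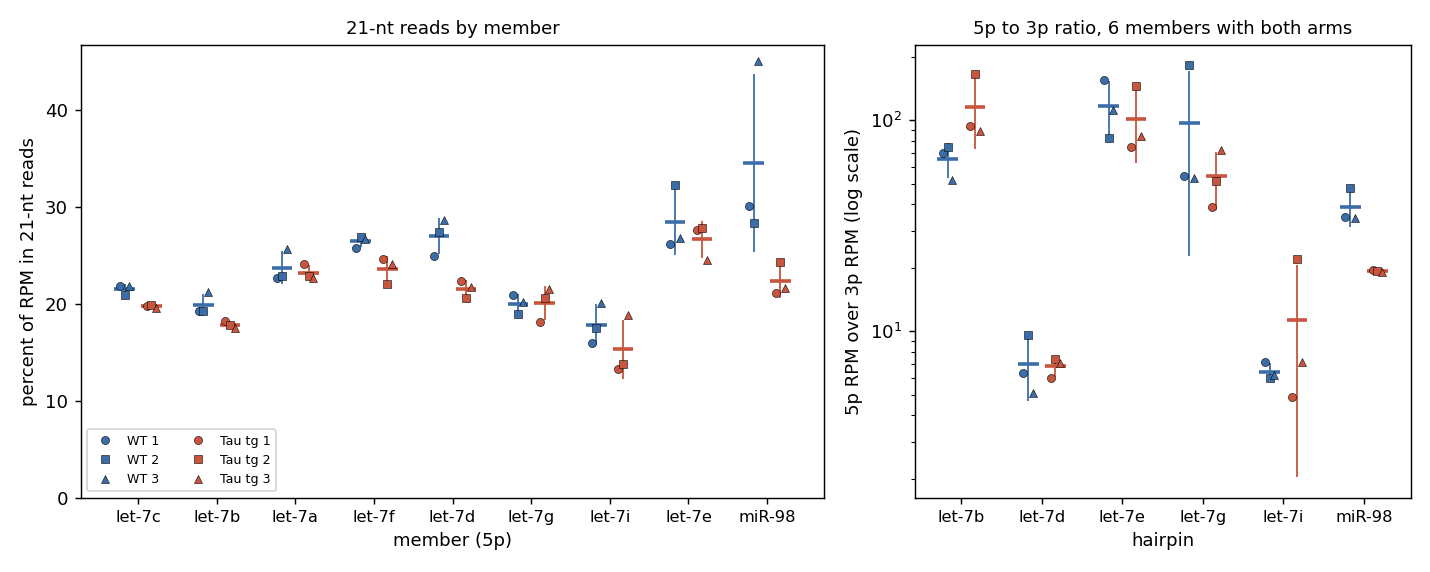
Left, percentage of each member's RPM in 21-nt reads; right, ratio of 5p to 3p RPM (log axis) for the 6 members with both arms under their own name. Points are the 3 WT (blue) and 3 Tau tg (red) samples with the group mean and 1 SD. The 21-nt share is lower in all Tau tg samples for let-7b, c, d, f and miR-98, and the ratio for miR-98 is 34.3 to 47.9 in WT and 19.1 to 19.6 in Tau tg.

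The other arms of the family hairpins are the strands that Ago usually discards. They were far less abundant than the 5p arms, apart from let-7d-3p and let-7i-3p. let-7d-3p stood at 1795, 1056 and 1126 RPM in WT and 1546, 1713 and 1709 RPM in Tau tg. let-7i-3p stood at 1216, 1159 and 948.5 RPM in WT and 1635, 363.8 and 1194 RPM in Tau tg, with Tau tg 2 far below the other 5 samples. let-7b-3p ranged from 186.5 to 407.5 RPM, the entry shared by let-7a-1-3p and let-7c-2-3p from 95.6 to 308.6 RPM, and let-7g-3p from 58.3 to 256.0 RPM.

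The ratio of 5p to 3p RPM thus differed by hairpin. It was 5.11 to 9.61 for let-7d, 4.86 to 21.9 for let-7i and 74.7 to 155 for let-7e. Of the 6 members with both arms measured under their own name, 2 had ratios that did not overlap between the groups, beside 13.3% of 128 miRNAs. For let-7b the ratio was 69.8, 74.9 and 51.9 in WT and higher in Tau tg, at 93.6, 165.5 and 88.5. For miR-98 it was 34.8, 47.9 and 34.3 in WT and lower in Tau tg, at 19.6, 19.4 and 19.1. miR-98-3p rested on 56, 16 and 11 reads in WT and 247, 39 and 87 in Tau tg. These ratios had no test and went in opposite directions.

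The 16 other entries of the family hairpins and clusters did not pass the test either. At an unadjusted p under 0.05 in limma 0 of 16 were called, against 3.63% of all miRNAs, 8 of 16 log2 fold changes were above 0 and their median was 0.17. Of the 15 above 0 in all 6 samples, the groups did not overlap for 5, with 9.53% of all such miRNAs. let-7a-2-3p, let-7e-3p, let-7f-1-3p and miR-98-3p were the 4 that were higher in Tau tg. let-7e-3p stood at 38.4, 48.1 and 32.1 RPM in WT and 66.6, 51.9 and 69.1 RPM in Tau tg. let-7a-2-3p rested on 1 to 5 reads per WT sample.

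The 5p miRNAs encoded beside the family had lower, not higher, means in Tau tg, with no call in limma. miR-125a-5p, a homologue of worm lin-4 from the let-7e cluster, stood at 5907, 7030.1 and 6372 RPM in WT and lower in Tau tg, at 4975, 5559.8 and 3307 RPM, without overlap. Its log2 fold change was -0.51 with an unadjusted limma p of 0.118, and -0.66 to -0.29 with 1 sample left out. The unadjusted p was 0.0381 in limma under median-of-ratios scaling, where 25 of 689 miRNAs were under 0.05. With DESeq2 it was 0.0442, where 37 of 689 were under 0.05. miR-99b-5p, from the same cluster, stood at 2426, 1469.7 and 992.5 RPM in WT and 1572, 1208 and 1788 RPM in Tau tg.

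miR-99a-5p, from the let-7c-1 cluster, stood at 14991, 9467 and 12333 RPM in WT and 16214, 1992 and 8253 RPM in Tau tg. The sample with the lowest miR-99a-5p, Tau tg 2, was the highest of the 6 for mmu-let-7c-5p. The log2 fold change of -0.90 became -0.06 without Tau tg 2 and -1.57 without Tau tg 1. miR-100-5p stood at 4094, 8841 and 7684 RPM in WT and 4582, 5199 and 6499 RPM in Tau tg. miR-125b-5p was as abundant as the upper members, at 33327, 19844 and 24779.7 RPM in WT and 18912, 23762 and 19038 RPM in Tau tg. The log2 fold changes of the 5 cluster miRNAs, from -0.90 to -0.02, were all below 0 under each scaling tried, where those of all 9 members were above 0. That of miR-99b-5p turned to 0.32 without WT 1 and 0.14 without Tau tg 2.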

How the data were processed

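Ago-bound short RNA of 6 samples was read from 1 deposited table of unique sequences. The RPM values are deposited, made by the authors with the SPOROS pipeline. It trimmed the reads, dropped rare ones, annotated the rest by BLAST and scaled each sample to a common total. The listed values nevertheless summed to 915719 RPM (WT 3) to 978886 RPM (Tau tg 1), and they were not rescaled for the main fits. Trim Galore is named in the submitters' processing notes, its version not given in the sources used here. The viability is a score in percent per 6mer seed, deposited by the authors from tests in murine cell lines. Of 109434 sequences, 44347 at 0 in all 6 samples were left out. A deposited total column was used only as a check. All values were whole multiples of 1 read (100% within 0.1 reads), which gave the read counts, 998248 to 6879551 per sample. For the family sum, counting error is small beside the spread between samples. That does not hold for entries that rest on few reads. Samples were grouped by their labels. The labels number the samples but do not tie them to cages, litters or days, so p-values measure only the spread between these samples.

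RPM was summed per mature miRNA, per 6mer seed and per sequence. Each table was tested with limma 3.58.1 (R 4.3.3) on log2(RPM + 1), with a mean-variance trend, for features with a mean of at least 1 RPM, and p-values were adjusted by the Benjamini-Hochberg method over the whole table. Read length, 21-nt share and other-seed share were fitted with limma in percent or nt for miRNAs of at least 100 RPM. As alternatives, recovered reads were tested with edgeR 4.0.16 and DESeq2 1.42.0, and the limma fits were repeated with other scalings, filters and pseudocounts, with the replicate number as a block, and without each sample in turn. The scripts were tested on simulated data. Sequences and coordinates are from RefSeq on GRCm38.p6. The reads named were the most abundant of each kind. The members and lists were chosen with earlier results of these data known.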

Additional observations from a re-analysis of the deposited data

Results flagged for a closer look

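The deposited table holds a column with a normalized total per sequence beside the 6 samples, and 103 of the 1399 member sequences were listed at 0 in every sample column but above 0 in that total. Their totals summed to 138.5, with 8.23 as the highest for a single sequence. Over the whole family that column was 1.09 times the sum of the 6 samples. No control value exists for it, and it entered no comparison.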

How the results depend on the processing

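At an adjusted p under 0.05, 0 members were called under all alternatives run, and at an unadjusted p it was 0 under all but one, leaving out WT 1, which gave 3. Without WT 1, 50 of 677 miRNAs were called at an unadjusted p. Of the alternative log2 fold changes of members, 161 kept their direction and 1 turned. That of mmu-miR-98-5p ran from -0.049 to 0.65 with 1 sample left out. The shared seed gave 0.00 under quantile normalization, because it is the top seed of every sample, and 0 is then fixed by construction. The 43 member sequences at an unadjusted p became 21 on log2(RPM + 5), 7 at a mean of at least 10 RPM, 23 without a trend, 13 with edgeR and 18 with DESeq2, which called 1 at an adjusted p, and 15 to 63 with 1 sample left out. The causes were not tested.

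Partners called at an unadjusted p went from 0 to 1 under median-of-ratios scaling, 1 under quantile normalization, 2 without a trend, 1 with DESeq2, and 0 to 1 with 1 sample left out. Directions turned for let-7c-1-3p, which rests on 0 to 3 reads in 5 samples (0.050 on log2(RPM + 5), 0.37 with edgeR, 0.27 with DESeq2, and -0.41 to 0.30 with 1 sample left out). With 1 sample left out they also turned for let-7b-3p (-0.36 to 0.059), let-7i-3p (-0.74 to 0.34) and miR-99b-5p (-0.33 to 0.32). Members called for the 21-nt share, a measure added after seeing the data, were 0 to 1 with 1 sample left out.

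Same-numbered samples did not deviate together over 689 miRNAs (correlations of -0.002, -0.07 and 0.04), while differently numbered ones gave -0.13 to 0.11. The numbers thus gave no sign of pairing. With 3 samples a group this cannot exclude a shared litter, cage or day. With the number as a replicate block, the call of mmu-let-7d-5p for the 21-nt share was lost (0 of 9 called, unadjusted limma p 0.102) and member sequences at an unadjusted p numbered 47. Depth limits the rarest entries: 3 reads are 0.427 to 2.75 RPM.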
